A study of Arabidopsis thaliana with 8 samples.

Results

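A group of 45 probe sets peaked in the subjective afternoon in wild type Arabidopsis seedlings and had no afternoon rise of more than 1.3-fold in the *fhy3* mutant. They were chosen on their deposited signals among the 22746 probe sets of the array, controls left out. In wild type the signal at 32 h of constant red light had to be at least 200 and at least 1.8 times that at each of 24, 40, and 48 h, and in *fhy3* the 32 h signal had to lie within 1.3-fold of the mean of 24 and 48 h. Of the 78 probe sets with the wild type peak, 45 met the second condition and form the flat group, 30 were raised over 1.3-fold at 32 h in *fhy3* and 3 were lowered. The 4 wild type arrays and the *fhy3* arrays at 24, 32, and 48 h made the choice, so their values describe the group and carry no test. The *fhy3* array at 40 h took no part in it.

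The seedlings were of the *fhy3-4* mutant and of its wild type, both in the No-0 ecotype, grown on medium with sucrose and entrained for 7 days in equal periods of white light and darkness. They were then kept in constant red light, and about 100 whole seedlings per sample were pooled. Each genotype has 1 Affymetrix ATH1 array at each of 24, 32, 40, and 48 h. No time point has a replicate, and with 8 arrays in all the precision is limited. The arrays at 24 and 48 h stand at subjective dawn, 1 day apart, and their mean is called the dawn level. From the log2 differences between 24 and 48 h in both genotypes, the SD of a single array in the 45 probe sets was 0.243.

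The plant circadian clock is a set of interlocked feedback loops of transcription, which holds many genes to a daily peak when the light no longer changes. Light sets the phase of these loops through photoreceptors, of which the phytochromes absorb red light. FHY3 is a transcription factor of phytochrome signalling, related to transposases, that activates genes of light signalling and of the clock.

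Of the 45 probe sets, 24 are paired with 1 gene, 4 of them with a symbol and 20 with a gene code alone. A further probe set matches 3 gene codes, AT1G24822, AT1G24996, and AT1G25097, and 20 are unnamed here. No function is given for genes known by a code alone. All 45 passed the filter on low signals, as did 18108 of all probe sets, which serve as the background below. Array means ran from 402.4 to 438.8. The array that set the choice, wild type at 32 h, stood farther from its fellow arrays of the same genotype than any other, with a median absolute log2 deviation of 0.261 against 0.166 to 0.193 for the other wild type arrays. In *fhy3* the 40 h array stood farthest, at 0.239 against 0.134 to 0.158. Neither *FHY3* nor *FAR1* is paired with a probe set here, so the genotypes were not checked on the mutated gene. Among markers of the tissues a seedling holds, the 3 mesophyll genes measured summed to 23363 to 25322 in *fhy3*, against 23120 to 26855 in wild type, while the root hair expansins *EXPA7* and *EXPA18* summed to 312 to 766 in *fhy3*, against 117 to 314 in wild type. The 4 epidermis and stomata genes measured summed to 2225, 2295, 4200.1, and 2142 in *fhy3* at 24, 32, 40, and 48 h, against 2431, 3190, 3235, and 2310 in wild type, so that their sum was highest at 40 h in both genotypes. No vascular marker could be named, and the part of tissue makeup in the values was not tested. In whole seedlings fewer cells of a type and less RNA per cell cannot be told apart.

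The median signal of the 45 probe sets was 184, 210, 198, and 205 in *fhy3* at 24, 32, 40, and 48 h, against 196, 461, 199, and 183 in wild type. The *fhy3* median stayed close to the wild type trough at every time, and the wild type median stood out at 32 h alone. Over all probe sets tested, the median signal of an array was 216 to 229 over the 8 arrays. The wild type signal at 32 h ran between 205.5 and 2758, with 8 probe sets under 300 and 3 over 1000. It was 1.8 to 4.70 times the highest other wild type time, with a median of 1.90, so that 30 probe sets lay below 2 and 3 above 2.5. By 40 h the wild type signal was within 1.3-fold of the dawn level in 34 of 45, over that in 5 and under it in 6.

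**Figure D1:**
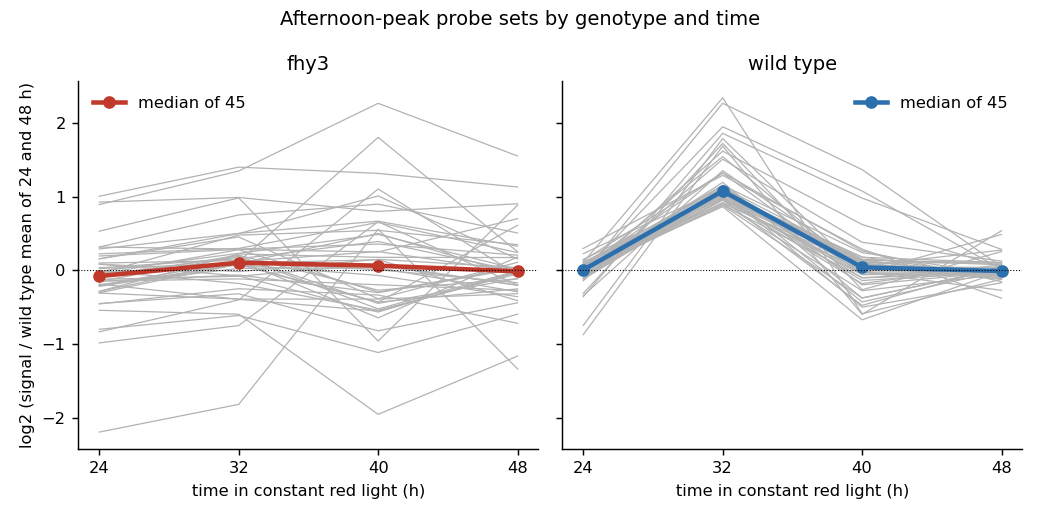
Each grey line is 1 of the 45 probe sets, in *fhy3* (left) and in wild type (right), as log2 of the signal over the wild type mean of 24 and 48 h, against hours in constant red light. The thick line is the median, which in wild type stands out at 32 h alone and in *fhy3* stays near 0, while single *fhy3* lines spread most at 40 h.

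*IAA29*, a member of the Aux/IAA family of auxin response repressors, had signals of 121, 149, 105, and 216 in *fhy3* at 24, 32, 40, and 48 h, against 110, 512, 278, and 172 in wild type. At 32 h *fhy3* was lower by 1.78 on the log2 scale (−1.78). The wild type fall to 48 h was gradual, and in *fhy3* the highest of the 4 signals was at 48 h. *ALN*, which encodes allantoinase, an enzyme of purine breakdown that opens the ring of allantoin, had 237, 272, 254, and 225 in *fhy3*, against 253, 537, 188, and 252 in wild type. Its 4 *fhy3* signals kept close to the wild type dawn signals. *Fes1B*, named after the yeast Fes1 protein that exchanges nucleotides on Hsp70 chaperones, had 168, 175, 154, and 165 in *fhy3*, against 87.4, 341, 186, and 89.1 in wild type. Here the *fhy3* level was steady, at 32.2% of the way between the wild type dawn and peak signals, with a dawn level 1.89 times that of wild type.

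*EXLA1*, which encodes expansin-like A1, a relative of the expansins that loosen the cell wall, was the exception at 32 h. Its signals were 381, 522, 986, and 601 in *fhy3*, against 227, 427, 145, and 183 in wild type, so that *fhy3* was above wild type at each time, by 0.29 on the log2 scale at 32 h and by 2.76 at 40 h. The *fhy3* signals at 24 and 48 h lay on either side of that at 32 h, which was 1.06 times their mean.

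Among the genes known by a code, AT2G38180 had the highest peak ratio, 2.91, with 82.4, 86.7, 111, and 83.4 in *fhy3*, against 70.7, 206, 69.2, and 70.2 in wild type. AT5G21020 followed with a ratio of 2.77, and had 45.8, 61.8, 175, and 78.3 in *fhy3*, against 65.7, 269, 68.0, and 97.3 in wild type. At 32 h in *fhy3* both were near their wild type dawn signals. At 40 h AT5G21020 was 2.83 times its *fhy3* dawn level and AT2G38180 1.33 times. AT4G22510 had the largest deficit at 32 h, with 54.1, 70.2, 364, and 98.0 in *fhy3*, against 135, 796, 164, and 359 in wild type. That is a log2 difference of −3.50 at 32 h, with a *fhy3* dawn level 0.308 times that of wild type and wild type dawn signals that themselves lay 2.66-fold apart. AT4G18670 had 185, 202, 143, and 186 in *fhy3*, against 255, 562, 220, and 249 in wild type, and so was below wild type on each array. The most abundant signal was that of AT2G30930, with 1004, 1317, 919.5, and 1042 in *fhy3*, against 1296, 2758, 1466, and 1182 in wild type. It kept the largest afternoon rise in *fhy3* of any of the 45, 1.29-fold, close to the limit of 1.3. AT5G27280 had 650.3, 753, 844, and 667 in *fhy3*, against 514, 1630.3, 818, and 549 in wild type. AT5G62360 had 206, 271, 255, and 225 in *fhy3*, against 98.95, 494, 265, and 106 in wild type, and like *Fes1B* its *fhy3* signals lay between the wild type trough and peak.

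**Figure D2:**
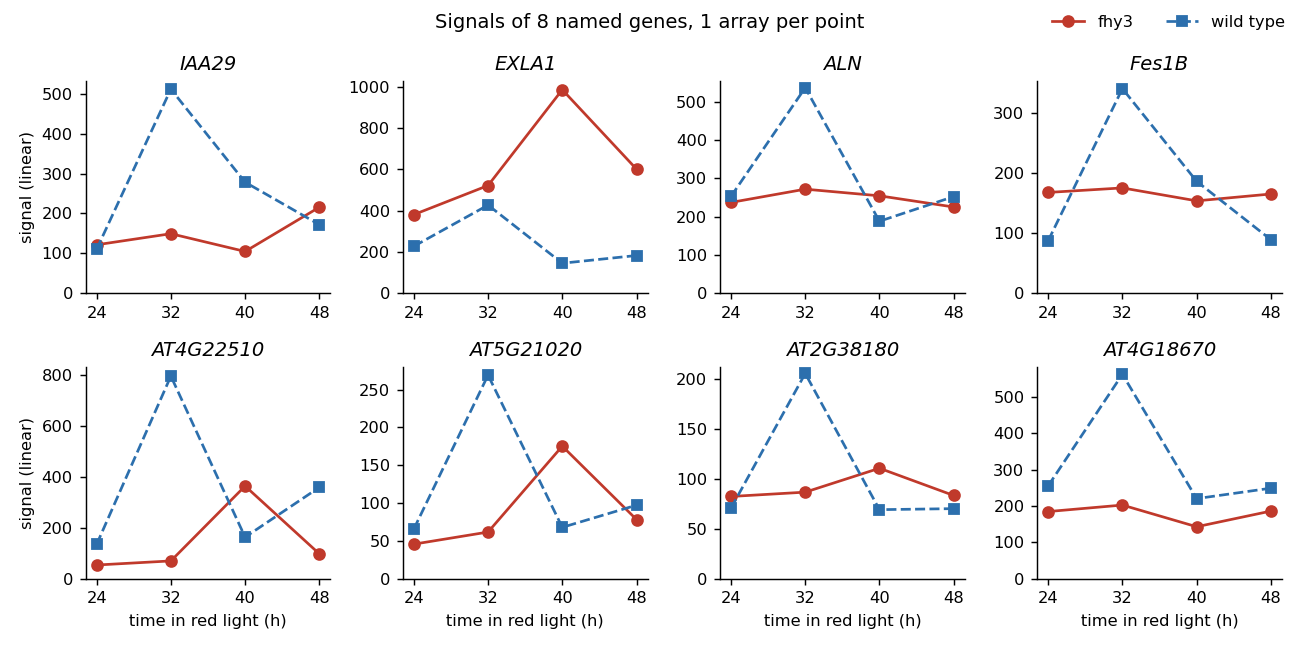
Linear signal against hours in constant red light for 8 named genes, with *fhy3* as circles and solid lines and wild type as squares and dashed lines, 1 array per point. Wild type peaks at 32 h in each, and *fhy3* stays low at 32 h except in *EXLA1*. *EXLA1*, AT4G22510, AT5G21020 and, by less, AT2G38180 are highest in *fhy3* at 40 h.

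The remaining genes named by the rule follow. AT4G26130 had 155, 222, 232, and 203 in *fhy3*, against 145, 453, 207, and 174 in wild type, and its *fhy3* signals at 32, 40, and 48 h sat slightly above the wild type trough. AT1G24530 had 206, 244, 292, and 210.3 in *fhy3*, against 220, 424, 223, and 196 in wild type. AT1G32090 had 136, 153, 203, and 138 in *fhy3*, against 154, 297, 159, and 134 in wild type, and both were highest in *fhy3* at 40 h. AT3G26990 had 124, 145, 146, and 117 in *fhy3*, against 135, 311, 158, and 150 in wild type. AT5G07820 had 94.6, 118, 130, and 108 in *fhy3*, against 105, 224, 112, and 112 in wild type. In these the *fhy3* range did not reach the wild type peak. AT4G25260 had 326, 412, 251, and 360 in *fhy3*, against 363, 681, 378, and 359 in wild type, AT1G19860 had 101, 128, 85.9, and 108 in *fhy3*, against 114, 212, 113, and 96.9 in wild type, and AT5G11550 had 150, 130, 116, and 167 in *fhy3*, against 170, 316, 159, and 171 in wild type. These 3 were lowest in *fhy3* at 40 h.

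The choice held the *fhy3* signal at 32 h near the *fhy3* dawn level, and fixed neither the height of that level nor the 40 h signal. In *fhy3* the 32 h signal was 0.82 to 1.29 times the dawn level, with a median of 1.12, and it exceeded the dawn mean in 33 of 45. It was above both *fhy3* dawn arrays in 28 and below both in 5. Over all probe sets tested the median ratio was 1.01, and these counts have no background here. The values of that height come from arrays that made the choice and describe the group alone. The log2 difference of the *fhy3* dawn level from that of wild type had a median of −0.06 and a range of −1.70 to 1.26. Over all probe sets tested its median was −0.005. The mean of *fhy3* at 24, 32, and 48 h was then placed between the wild type dawn level, taken as 0%, and the wild type 32 h signal, taken as 100%. The median position was 0.500%, against 5.78% in the 30 raised probe sets. Their 32 h signal in *fhy3*, over 1.3-fold above dawn by definition, enters the mean and lifts their position. The *fhy3* dawn level alone was 0.960 times that of wild type at the median in the 45, against 0.913 times in the 30. In 21 members the position was below the wild type dawn level, in 19 at 0 to 20% of the rise, in 4 at 20 to 50% and in 1, *EXLA1*, above that. The *fhy3* dawn level was at least 1.5-fold above that of wild type in 4 members, against a background of 4.06%, and at least 1.5-fold below it in 3, against 3.74%.

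Against wild type at 32 h, *fhy3* was lower in 44 of 45, with *EXLA1* higher, and the median log2 difference was −0.98 with a range of −3.50 to 0.29. It was at least 1.5-fold lower in 43, where the background is 10%, and the choice on both signals leaves nothing to read from that count. At 24 and 48 h the median log2 differences were −0.09 and −0.03. At 40 h the median was 0.05, with a wide range of −2.24 to 2.76, and it was slightly below 0 after quantile normalisation or scaling to the same median. At that time *fhy3* was at least 1.5-fold above wild type in 8 members (17.8%) and at least 1.5-fold below in 9 (20%). The backgrounds were 14.4% and 7.97%, but the choice had limited the wild type signal at 40 h. The 4 *fhy3* signals of a probe set were all below the wild type 32 h signal in 43 of 45. They lay within 1.5-fold of each other in 31 and spanned over 2-fold in 8. The range was 1.43-fold at the median in *fhy3* and 2.34-fold in wild type, and it was the smaller one in *fhy3* in 43. Over all probe sets tested the median range was 1.35-fold in *fhy3* and 1.44-fold in wild type. In *fhy3* the 45 were thus no flatter than probe sets at large, and the choice required a wild type range of at least 1.8-fold.

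The 30 probe sets raised in *fhy3* show what the flat group was set apart from. Their wild type 32 h signal was 1.94 to 5.79 times the dawn level, with a median of 2.76, while the flat group had 1.82 to 5.07 with a median of 2.11. In *fhy3* the raised group had ratios of 1.31 to 3.79 with a median of 1.58, and most had a lower ratio in *fhy3* than in wild type. The groups meet at the limit without a gap. *GI*, the evening clock gene GIGANTEA that also acts in flowering by day length, lay just outside it at 1.31-fold, with 513, 751, 892, and 635 in *fhy3*, against 183, 1127, 594, and 236 in wild type. AT1G73750 was next outside at 1.31-fold and AT2G30930 just inside at 1.29-fold. At the peak threshold AT4G25260 was just inside. AT5G24570 was just outside, with 922, 850.1, 863, and 951 in *fhy3*, against 896, 1609, 836, and 719 in wild type. AT2G38180 was just inside the minimum signal.

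**Figure D3:**
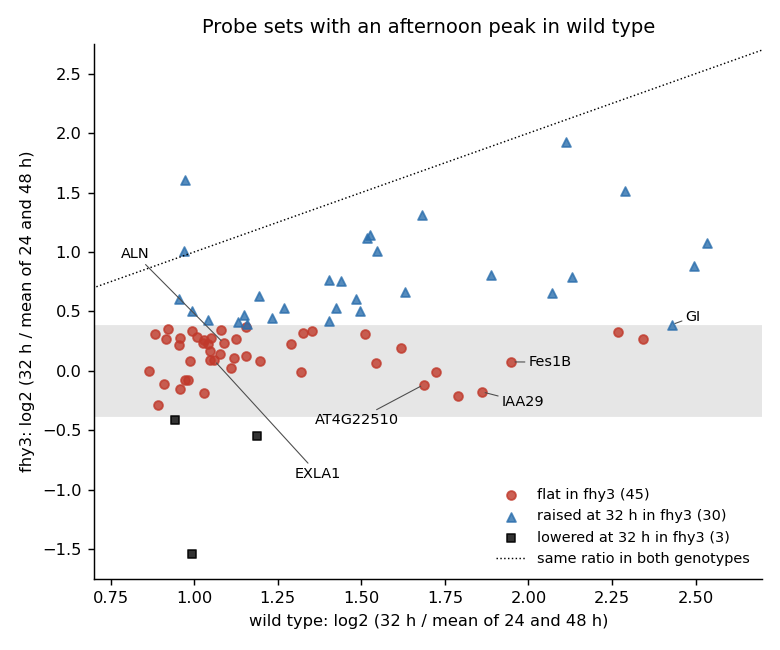
Log2 ratio of the 32 h signal to the mean of 24 and 48 h in wild type (horizontal) and in *fhy3* (vertical) for the 78 probe sets with the wild type peak. The grey band is the 1.3-fold range that defines the 45 flat probe sets (circles). The 30 raised (triangles) and 3 lowered (squares) lie outside it, with no gap at its upper edge.

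With the genotypes exchanged the same thresholds took fewer probe sets. In *fhy3*, 26 probe sets had a peak at 32 h, of which 8 were flat in wild type, and 4 peaked at 32 h in both genotypes. By the same peak criteria applied at each time, *fhy3* had 1, 26, 255, and 8 peaks at 24, 32, 40, and 48 h, against 19, 78, 48, and 19 in wild type. The highest count fell at 40 h in *fhy3* and at 32 h in wild type. In each genotype this was the array that stood farthest from its fellows. A gene high at both 24 and 48 h cannot meet the criteria at either, which holds down the counts at these times.

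At 40 h, which the choice did not use in *fhy3*, the signal was 0.313 to 4.79 times the *fhy3* dawn level, with a median of 1.1. It was within 1.5-fold in 34 members. In 6 (13.3%) it was at least 1.5-fold above the dawn level, against a background of 10.1%, and in 5 (11.1%) at least 1.5-fold below, against 9.54%, so both shares were near those of all probe sets. On the same *fhy3* array the summed epidermis and stomata markers were at their highest, 4200.1, and the summed root hair expansins at their lowest, 312. In wild type these sums were likewise highest and lowest at 40 h, at 3235 and 117. The low *fhy3* sum came from *EXPA18*, at 164, while *EXPA7* was at 148 and was lowest at 24 h, at 78.7. The part of either set in the 40 h values was not tested. The 40 h array was the highest of the 4 *fhy3* arrays in 19 and the lowest in 17, where the backgrounds are 38.1% and 32.5%. Of the 30 raised probe sets, 12 (40%) were at least 1.5-fold above and 2 (6.67%) below. In wild type, 4 of the 45 were at least 1.5-fold above the dawn level at 40 h and 3 below, with backgrounds of 4.34% and 10.5%, but here the choice had limited the 40 h signal.

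The 6 members above at 40 h were AT4G22510 at 4.79-fold, the unnamed 247925_at at 3.47-fold, AT5G21020 at 2.83-fold, the probe set of 3 genes at 2.3-fold, *EXLA1* at 2.01-fold and the unnamed 259517_at at 1.81-fold. Unnamed probe sets were picked here after their values were seen. For 247925_at the signals were 173, 229, 738, and 252 in *fhy3*, against 247, 458, 208, and 175 in wild type, and with *EXLA1* it made up the 2 members whose *fhy3* signal at 40 h exceeded the wild type signal at 32 h. For 259517_at they were 406, 515, 733, and 405 in *fhy3*, against 370.2, 770, 339, and 358 in wild type, so that the 40 h signal in *fhy3* came near the 32 h signal in wild type. The probe set of 3 genes had 85.5, 101, 267, and 147 in *fhy3*, against 101, 584, 164, and 237 in wild type. In these 6 the wild type signal at 40 h was 0.662 to 0.985 times its own dawn level.

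Lower at 40 h were *IAA29*, at 0.621 times its *fhy3* dawn level, and 4 unnamed probe sets. Against the 24 h array alone the log2 ratio of *IAA29* was −0.214, so that its place here rests on the 48 h array. The lowest was 245325_at, with 219, 299.96, 78.1, and 280.1 in *fhy3*, against 164, 769, 101, and 140 in wild type, which also had the highest wild type peak ratio of the 45. The next, 263981_at, had 129, 124, 48.5, and 83.9 in *fhy3*, against 231, 459, 229, and 145 in wild type, and was below wild type on each array.

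**Figure D4:**
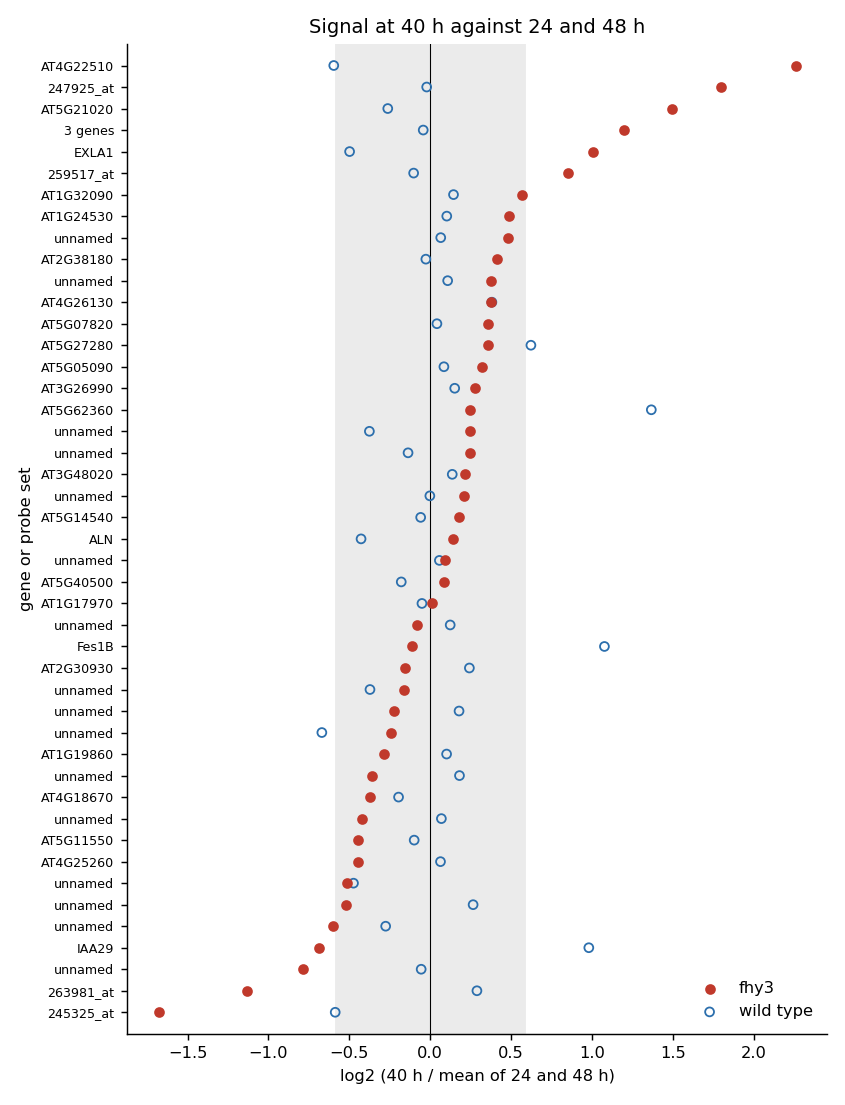
Log2 ratio of the 40 h signal to the mean of 24 and 48 h for each of the 45 probe sets, ordered by the ratio in *fhy3* (filled), with wild type as open circles, and the 1.5-fold range in grey. In *fhy3*, 6 probe sets lie above the range and 5 below it. Several probe sets lie on opposite sides of 0 in the genotypes, among them *EXLA1*, *IAA29* and AT4G22510.

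Differences between 40 h and dawn in *fhy3* were tested with limma across all probe sets, in which the spread comes from 24 against 48 h and not from biological replicates. The 24 and 48 h arrays, which give both the baseline and the spread, took part in the choice of the 45, and the 40 h array alone did not, so the p-values of members are not fully independent of it. Of the 18108, 59 (0.326%) passed as higher and 81 (0.447%) as lower, and of the 45 none passed in limma in either direction. At an unadjusted p under 0.05, 9 members were higher, where the background is 12.3%, and 10 lower, with 11.8%. The smallest adjusted p among the members was that of 259517_at (log2 difference 0.85, SE 0.11, adjusted p = 0.0596 from limma). The next was that of 245325_at (−1.67, SE 0.21, adjusted p = 0.0605 from limma). AT4G22510 had the largest difference, with *fhy3* signals at 24 and 48 h of 54.1 and 98.0, and did not pass (log2 difference 2.32, SE 0.72, adjusted p = 0.176 from limma). For *EXLA1* the difference was 1.04 (SE 0.33, adjusted p = 0.181 from limma) and for *IAA29* −0.63 (SE 0.47, adjusted p = 0.461 from limma). With signals floored at 20% of the mean of all in place of 5%, or with no filter on low signals, 259517_at and AT2G38180 passed as higher, and with no floor 245325_at passed as lower.

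Rhythm was called with criteria modelled on those of the methods, which correlate the 4 signals with sine waves of 24 h and ask for a 1.5-fold predicted change, and the calls are not those of the study. Their other route, an absolute change of 103375.7 when scaled to these arrays, was out of reach, since the highest signal is 15042.5. In this way 10 of the 45 were rhythmic in *fhy3*, 29 in wild type and 5 in both, with backgrounds of 10.7%, 12.6%, and 1.83%. The choice used 7 of the 8 signals that enter these calls, so they describe the group alone. The best-fitting phase in wild type was 8 h after subjective dawn in 31 members, 7 h in 7, 9 h in 5 and 10 h in 2. In *fhy3* the best-fitting phases were spread from 0 to 18 h. Among the 10 were AT4G22510, AT1G32090, 259517_at and 247925_at, with phases of 15 or 16 h in *fhy3*, and AT4G18670 and AT2G30930 with phases of 5 and 7 h. In the raised group, 14 of 30 were rhythmic in *fhy3* and 9 in both genotypes.

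Gene lists of pathways found few named members, because most of the 45 are unnamed or known by a code. Of 23 tested genes of cell wall growth, 1 was a member, *EXLA1*. In that list 3 genes were at least 1.5-fold above dawn at 32 h in *fhy3* and 4 in wild type, where the backgrounds are 3.92% and 8.83%. At 40 h in *fhy3* 2 were above and 7 below, with the backgrounds of 10.1% and 9.54% given for that comparison. *COB*, the COBRA gene of oriented cell expansion, was 1.16 times its dawn level at 32 h in *fhy3* and 1.58 times in wild type, short of the peak threshold. Others of the list went the other way, among them *EXPA18*, at 1.57 times in *fhy3* and 0.589 times in wild type. *EXPA9* was at 1.55 and 0.917 times. Of 6 tested auxin genes, 1 was a member, *IAA29*, with 1 gene above at 32 h in *fhy3* and 3 in wild type, and with 2 above and 2 below at 40 h in *fhy3*, against those same backgrounds. With 6 genes each such share rests on few. In the auxin list *GH3.3* went the other way, at 2.00 times its dawn level at 32 h in *fhy3* and 1.53 times in wild type. *HAT2*, a homeodomain-leucine zipper gene that auxin induces, came from a list of shade-linked growth and was not a member. It was 0.92 times its dawn level at 32 h in *fhy3* and 1.64 times in wild type. The genes of the 45 that could be placed were all protein-coding. None neighboured a gene of another member probe set, the closest pair being AT1G24530 and AT1G24822, placed 29 genes apart.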

How the data were processed

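The values are linear probe set signals, intensities from Affymetrix ATH1 arrays, used as the authors deposited them. The submitters' processing notes name MAS5, with no version, whereas the methods name D-chip, and which of them made the values stays unsettled. Genes were named from GEO's platform annotation and RefSeq (TAIR10.1), with 13513 probe sets paired with 1 gene, 503 with several and 8730 not listed. No coordinates, sequences or promoter motifs are given. The members and gene lists were chosen with earlier results of these data known.

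Probe sets with a mean of at least 20.7, 5% of the mean of all (413.5), in at least 1 genotype were tested, 18108 in all. Signals under 20.7 were set to 20.7, log2 was taken, and limma 3.58.1 (R 4.3.3) fitted genotype by circadian phase with 6 coefficients and 2 residual degrees of freedom. Benjamini-Hochberg adjustment was used at 0.05. The fit was tested on simulated data. Python 3.11.15 was used elsewhere.

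Genes named were members paired with 1 gene that ranked highest in wild type peak ratio or 32 h signal, or highest or lowest in *fhy3* at 40 h or at dawn, those on a gene list and those nearest a threshold. Codes without a symbol were named among the first 5 of a ranking or nearest a threshold. The root, mesophyll, vascular and epidermis lists served as tissue markers. Alternatives changed the thresholds, the normalisation, the dawn arrays, the probe sets, the floor and the filter.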

Additional observations from a re-analysis of the deposited data

Results flagged for a closer look

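At 40 h, *EXLA1* and *IAA29* lay on opposite sides of the dawn arrays in the genotypes. The 40 h signal was outside both dawn arrays of each genotype, and differed from their mean by at least 1.5-fold in *fhy3* and 1.3-fold in wild type. For *EXLA1* the log2 ratio of 40 h to the dawn level was 1.01 in *fhy3* and −0.498 in wild type. For *IAA29* it was −0.688 in *fhy3* and 0.981 in wild type. Each rests on 1 array per genotype at 40 h, and the difference between genotypes was not tested.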

How the results depend on the processing

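The number of members depends on the thresholds. It was 172 with a peak of at least 1.5 times and 7 with 2.2 times, 29 with a band of 1.2, 81 with a minimum signal of 100, and 24 with probe sets of 1 gene, against 45. Members higher at 40 h in *fhy3*, 6 as reported, numbered 13 with a peak of 1.5 times, 3 with 2.2 times, 10 with a minimum of 100 and 3 with probe sets of 1 gene. Members lower, 5 as reported, numbered 12 with a peak of 1.5 times, 2 with 2.2 times and 1 with probe sets of 1 gene. With a fold of 1.3 at 40 h, 11 were higher and 10 lower, and with a fold of 2, 2 were lower. Quantile normalisation gave 3 lower. With a peak of 2.2 times the median log2 difference from wild type was −1.36 at 32 h and 0.677 at 40 h. With the genotypes exchanged the count was 27 with a peak of 1.5 times and 0 with 2.2 times, against 8. The limma calls at 40 h in *fhy3*, 59 higher and 81 lower, became 127 and 333 with no floor, 359 higher with a floor at 20%, 221 higher with no filter, and 29 and 14 after quantile normalisation. Members called numbered 2 higher with the floor at 20%, 2 higher with no filter, and 1 lower with no floor.

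Of the 45, 30 remained after quantile normalisation and 44 after scaling to the same median, 37 without the 24 h arrays and 36 without the 48 h arrays. Under each of 10 settings of the thresholds, minimum, normalisation and dawn arrays, 2 remained. Without the 48 h arrays the log2 ratio at 40 h in *fhy3* was 1.94 for AT5G21020, 1.37 for *EXLA1* and −0.214 for *IAA29*. In all, 67 values of the main results stayed within their limits and 29 moved. Medians near 0 changed sign within the spread of 24 against 48 h. The median difference from wild type at 40 h, 0.0451, was −0.0583 with a higher minimum signal, −0.0177 after quantile normalisation and −0.0537 after scaling to the same median. That at 24 and 48 h, −0.0582, was 0.0679 without the 24 h arrays. No analysis paired by replicate number was possible because each genotype and time has 1 array, all with the same number. The wild type 32 h array, on which the choice of all 45 rests, cannot be left out.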
